A study of Homo sapiens with 9 samples.

Results

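The genes examined were 8 components of the AKT, TSC and mTOR signalling route, AKT1, AKT2, TSC1, TSC2, RHEB, MTOR, RPTOR and EIF4EBP1, chosen by name. All probes that the platform annotation names for them were taken, 14 probes of the 47231 on the array. Of these, 11 probes, for 7 of the 8 genes, were detected well enough to be tested, among 12498 tested genes in all. The cells were BON-1, a long-used human pancreatic neuroendocrine tumour line, and their RNA was read on 9 Illumina HumanHT-12 v4 BeadChips. They carried Vector, RABL6A shRNA #1 or RABL6A shRNA #2 (called vector, shRNA 1 and shRNA 2 from here on), with 3 arrays in each group, the shRNAs in the pLKO.1 lentiviral vector. RABL6A is encoded by RABL6 and resembles RAB GTPases. Each shRNA is one hairpin, and the labels name separately made sets of cells without saying whether these were separate transductions, so the p-values reflect only how far these samples spread, which may be technical. The study's question was the part RABL6A plays in G1 to S progression and growth of such tumour cells.

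AKT kinases are switched on at the membrane downstream of growth factor receptors and PI3-kinase. AKT phosphorylates TSC2, which together with TSC1 forms a complex that keeps the small GTPase RHEB inactive. RHEB bound to GTP activates the kinase MTOR in the complex mTORC1, whose scaffold RPTOR brings in substrates such as the translation repressor encoded by EIF4EBP1. The route is well known in pancreatic neuroendocrine tumours, where TSC2 and other genes of it are recurrently mutated and mTORC1 inhibitors are used in treatment. Most of this control acts on proteins, and the arrays measured RNA.

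The median deposited signal was 119 to 129 per array and 41.4% to 44.9% of probes were detected. All 10 neuroendocrine markers examined were detected on all 9 arrays, whereas PTPRC, CD3E, COL3A1, LUM, PECAM1 and CDH5, which mark immune cells, fibroblasts and endothelium, were detected on 0 arrays. Other markers of those cells were detected: CD68, which lies in lysosomes, on 9 arrays with a signal of up to 2106, CD14, LYZ and KDR also on 9, VWF on 5, PDGFRB on 3, COL1A1 on 2 and COL1A2 on 1, the last 7 with signals of 206 or lower. Their part in the results was not tested. The shRNA arrays did not group by hairpin. Across genes, which are not independent replicates, shRNA 1 replicates 1 and 3 and shRNA 2 replicate 2 correlated with each other at r = 0.988 to 0.995. The other 3 shRNA arrays did so at 0.988 to 0.994, and pairs between these arrays lay at 0.933 to 0.956. Groups follow the labels, and each member's result is also given on 7 arrays, without both shRNA arrays numbered 2. Those arrays were nearer in profile to arrays of the other hairpin. The 7-array fit thus rests on a choice made on these same data, and its p-values are no independent support. The mean log2 signal of RABL6, the targeted gene, was 7.71 ± 0.13 (SD, n = 3) for vector, 5.74 ± 0.45 (SD, n = 3) for shRNA 1 and 5.68 ± 0.01 (SD, n = 3) for shRNA 2. RABL6 changed by -1.99 (SE 0.19, limma adjusted p = 0.0014), and shRNA 2 minus shRNA 1 was -0.05 (95% interval from -0.54 to 0.44). The RABL6 level thus does not settle which hairpin an array had. The RABL6 probe was dim, with deposited signals of 130 to 341 and means of 155 for shRNA 1 and 150 for shRNA 2. Its change ranged from -2.17 to -1.02 over the alternatives described at the end, so its size is uncertain.

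With the RABL6 hairpins AKT1 and EIF4EBP1 fell and TSC1 rose, while TSC2, RHEB, MTOR and RPTOR did not pass the test and AKT2 was not detected. For both shRNAs against vector, 3 of the 7 tested members passed at an adjusted p under 0.05, 1 higher and 2 lower, where 16.6% of all tested genes passed (8.54% higher, 8.09% lower). On 7 arrays the 3 that passed were again AKT1, TSC1 and EIF4EBP1, against 41.2% of all genes. The 6 shRNA arrays and the 3 vector arrays did not overlap for those 3 genes, which was so for 29.2% of all tested genes (15% above, 14.2% below). All log2 values are of background-corrected and quantile-normalized signal with an offset, and differences of dim probes are understated on that scale. In bulk RNA, fewer cells with a transcript and less of it per cell cannot be told apart.

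**Figure D1:**
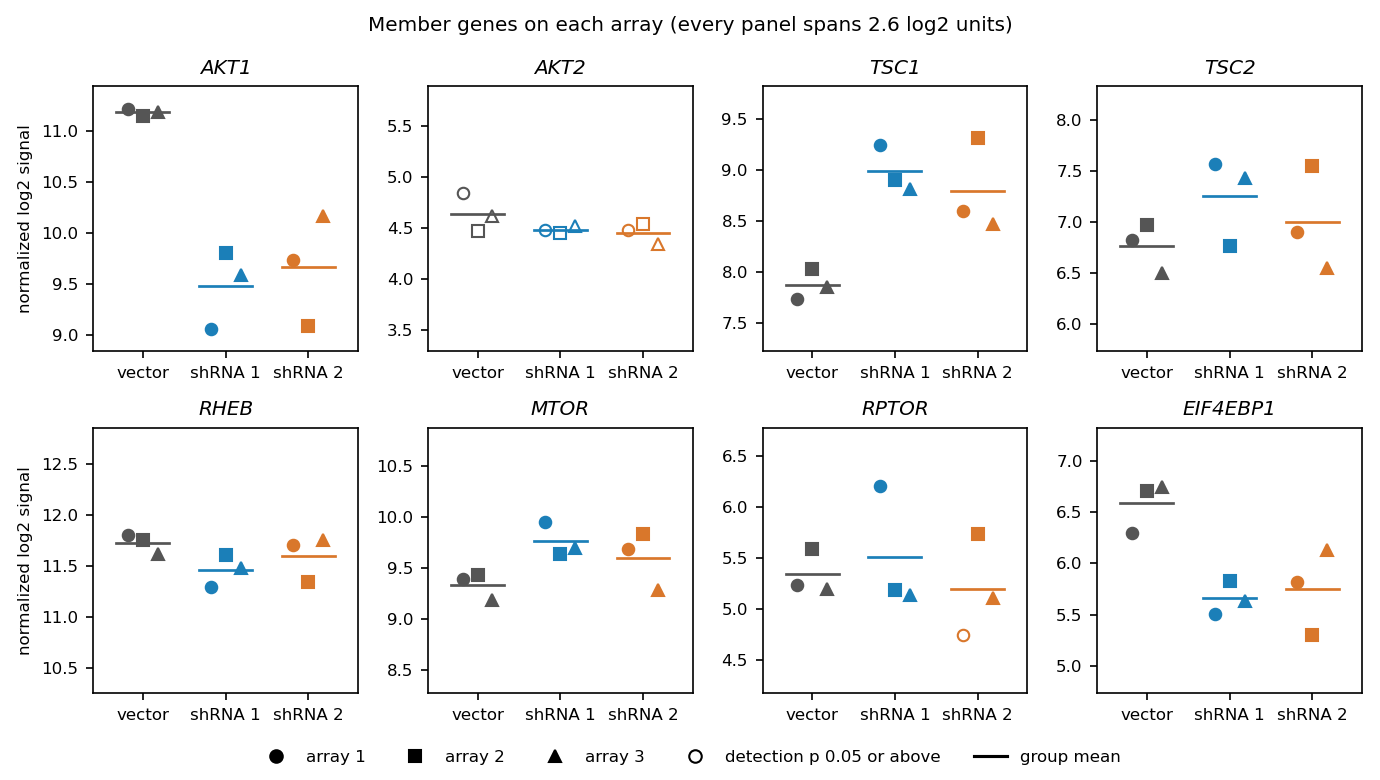
Normalized log2 signal (vertical axis, 2.6 units in every panel) of 1 probe for each of the 8 genes on the 3 vector, 3 shRNA 1 and 3 shRNA 2 arrays; marker shape gives the array number, open markers a detection p of 0.05 or above and bars the group means. AKT1 lies at 11.14 to 11.22 with vector and at 9.06 to 10.16 with the shRNAs, and the 3 arrays shRNA 1 replicates 1 and 3 and shRNA 2 replicate 2 lie beyond the other shRNA arrays for AKT1, TSC2, RHEB, MTOR and EIF4EBP1.

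AKT1 encodes one of the AKT kinases. Its brightest probe (ILMN_2388507) read 11.22, 11.14 and 11.18 (log2) in the vector arrays. It read 9.06, 9.81 and 9.58 in those of shRNA 1, and 9.74, 9.09 and 10.16 in those of shRNA 2. Every shRNA array was far under every vector array, and the shRNA arrays spread more widely than the vector arrays. Vector averaged 11.18 ± 0.04 (SD, n = 3), shRNA 1 averaged 9.48 ± 0.38 (SD, n = 3) and shRNA 2 averaged 9.66 ± 0.54 (SD, n = 3). Over both shRNAs AKT1 fell by 1.61 (SE 0.24, limma adjusted p = 0.00542), which is 32.8% of its vector level. The deposited signals, which carry no correction, showed the same order, with 2531 to 2562 for vector and 631 to 1236 for the shRNAs. On 7 arrays AKT1 fell by 1.55 (SE 0.15, limma adjusted p = 0.00033). A two-sided exact permutation test of 6 against 3 arrays gave p = 0.0119 for AKT1, TSC1 and EIF4EBP1. That is the smallest value its 84 splits allow, and only groups without overlap can give it. The same test gave 0.0714 for MTOR, 0.167 for RHEB, 0.31 for TSC2 and 0.94 for RPTOR.

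The 3 AKT1 probes did not tell the same story. Each is listed with a different AKT1 transcript record, and which exons they read was not examined. Probe ILMN_2410909 behaved like the first, with deposited signals of 2409, 2805 and 2501 in the vector arrays, 612, 1058 and 698 in those of shRNA 1 and 847, 636 and 986 in those of shRNA 2. Its log2 value fell by 1.75 (SE 0.21, limma adjusted p = 0.00285 over 22011 probes). Probe ILMN_1748661 was dim, with signals of 141, 152 and 130 in the vector arrays, 138, 153 and 140 in those of shRNA 1 and 161, 159 and 164 in those of shRNA 2. It was detected on all 9 arrays, but its values lie close to the array medians of 119 to 129. Its change was 0.43 (SE 0.15, limma adjusted p = 0.0961), opposite in sign to the bright probes, and for shRNA 2 alone 0.69 (adjusted p = 0.049). Averaging the 3 probes gives an AKT1 change of -0.98 (SE 0.18, limma adjusted p = 0.0111). Of the 11 tested member probes 5 passed, against 13.2% of all 22011 probes: both bright AKT1 probes, the EIF4EBP1 probe and 2 TSC1 probes.

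**Figure D2:**
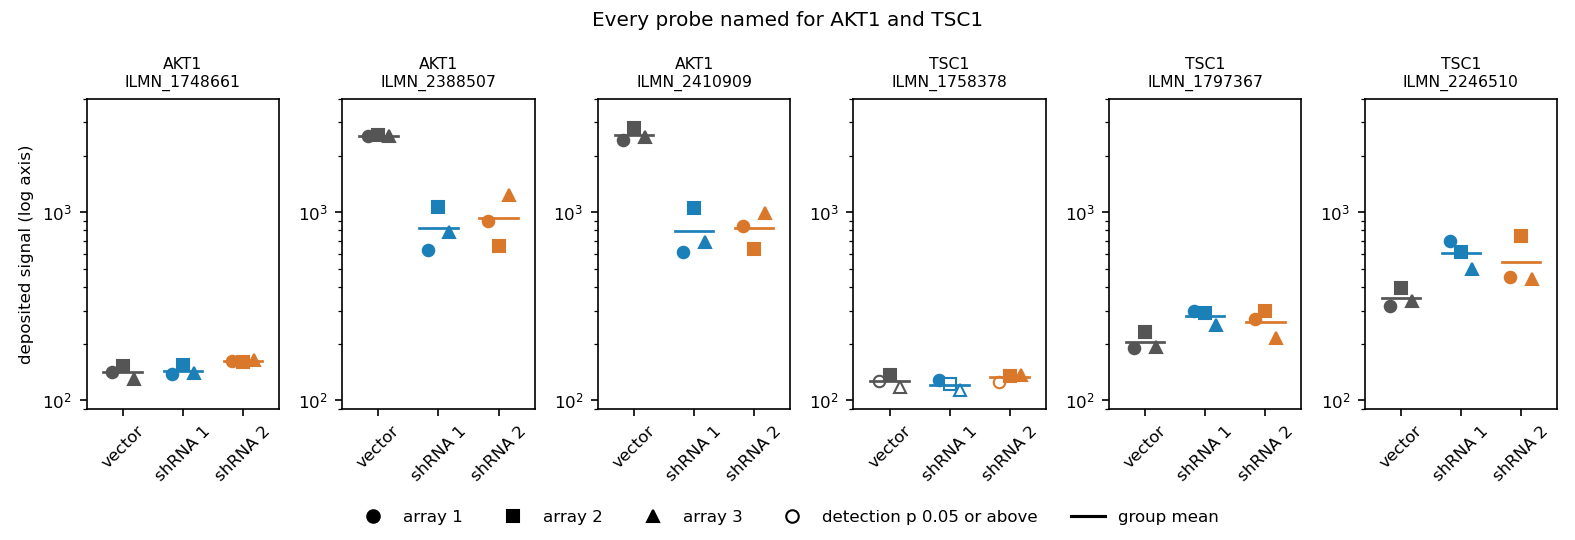
Deposited signal, not normalized (vertical log axis), of each of the 3 probes named for AKT1 and the 3 named for TSC1 on every array; marker shape gives the array number, open markers a detection p of 0.05 or above and bars the arithmetic group means. The bright AKT1 probes fall from 2409 or more to 1236 or less, the dim one stays at 130 to 164, and the TSC1 probes with the higher signals rise while the dimmest stays at 113 to 137.

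AKT2, the kinase gene of the same family, was below detection. Its 1 probe (ILMN_1743347) had signals of 98.5 to 125 and was detected on 0 of 9 arrays, so it was not tested and no fold is given.

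TSC1, the gene of hamartin, moved the other way. Its brightest probe (ILMN_2246510) read 7.73, 8.03 and 7.85 (log2) in the vector arrays. It read 9.24, 8.90 and 8.81 in those of shRNA 1, and 8.60, 9.31 and 8.46 in those of shRNA 2. All 6 shRNA arrays were above the highest vector array, with shRNA 2 replicate 3 the nearest. The means were 7.87 ± 0.15 (SD, n = 3), 8.98 ± 0.23 (SD, n = 3) and 8.79 ± 0.45 (SD, n = 3) for vector, shRNA 1 and shRNA 2. TSC1 rose by 1.02 (SE 0.20, limma adjusted p = 0.0137), which is 202% of its vector level, and by 0.91 (SE 0.13, adjusted p = 0.0014) on 7 arrays. The deposited signals of this probe, which carry no correction, were 318 to 396 for vector and 442 to 745 for the shRNAs. Their means stood at a ratio of 1.64, so the size of the rise depends on the correction. The call was lost without vector replicate 1, 2 or 3 (limma adjusted p = 0.0724, 0.0556 and 0.0691), with changes of 0.95, 1.10 and 1.01. A second probe (ILMN_1797367) had signals of 190 to 231 with vector and 215 to 299 with the shRNAs, overlapping before normalization, and rose by 0.82 (SE 0.19, limma adjusted p = 0.0242). The third (ILMN_1758378) had signals of 113 to 137, was detected on 4 of 9 arrays, and changed by 0.08 (SE 0.15, limma adjusted p = 0.773). The mean of the 3 probes changed by 0.64 (SE 0.15, limma adjusted p = 0.0255).

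TSC2, the gene of tuberin, the partner with the activity that turns RHEB off, did not follow TSC1 on every array. Its tested probe (ILMN_1714216) read 6.82, 6.96 and 6.49 in the vector arrays, 7.57, 6.76 and 7.43 in those of shRNA 1 and 6.90, 7.54 and 6.54 in those of shRNA 2. The arrays shRNA 1 replicates 1 and 3 and shRNA 2 replicate 2 were above all vector arrays, and the other 3 lay within the vector range. The change was 0.36 (SE 0.26, 95% interval from -0.22 to 0.95, limma adjusted p = 0.37), and 0.35 (SE 0.14, adjusted p = 0.0852) on 7 arrays. The second TSC2 probe (ILMN_1762631) had signals of 111 to 133 and was detected on 0 of 9 arrays.

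RHEB, the GTPase between the TSC complex and mTORC1, read 11.81, 11.75 and 11.62 in the vector arrays, 11.30, 11.61 and 11.48 in those of shRNA 1 and 11.71, 11.35 and 11.76 in those of shRNA 2. The groups overlapped, and the change was -0.19 (SE 0.14, 95% interval from -0.50 to 0.12, limma adjusted p = 0.366). On 7 arrays it was -0.17 (adjusted p = 0.221). Its interval thus leaves no room for a fall the size of that of AKT1.

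MTOR, the kinase itself, read 9.39, 9.43 and 9.19 in the vector arrays, 9.95, 9.64 and 9.69 in those of shRNA 1 and 9.68, 9.83 and 9.29 in those of shRNA 2. Of the 6 shRNA arrays 5 were above all vector arrays, and shRNA 2 replicate 3 lay among them. The change was 0.34 (SE 0.15, 95% interval from -0.0029 to 0.69, limma adjusted p = 0.159), and 0.32 (SE 0.13, adjusted p = 0.0884) on 7 arrays. RPTOR, the scaffold of mTORC1, was near background. Its tested probe (ILMN_1797816), with signals of 120 to 172, was detected on 8 of 9 arrays and changed by 0.01 (SE 0.29, 95% interval from -0.65 to 0.67, limma adjusted p = 0.986), and by -0.04 (adjusted p = 0.9) on 7 arrays. The other RPTOR probe was detected on 1 of 9 arrays.

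EIF4EBP1, the gene of the repressor that holds the cap-binding factor eIF4E until mTORC1 phosphorylates it, fell. Its 1 probe (ILMN_1767324) read 6.30, 6.71 and 6.75 (log2) in the vector arrays, 5.51, 5.83 and 5.64 in those of shRNA 1, and 5.81, 5.30 and 6.13 in those of shRNA 2. The highest shRNA array, shRNA 2 replicate 3, was close under the lowest vector array. The means were 6.59 ± 0.25 (SD, n = 3), 5.66 ± 0.16 (SD, n = 3) and 5.75 ± 0.42 (SD, n = 3). EIF4EBP1 fell by 0.88 (SE 0.20, limma adjusted p = 0.0198), which is 54.2% of its vector level, and by 0.82 (SE 0.14, adjusted p = 0.00292) on 7 arrays. The signals were low, 179 to 219 with vector and 138 to 169 with the shRNAs, so the size depends on the background step: with no background correction the change was -0.37 (SE 0.09, limma adjusted p = 0.0225) and with a larger offset of 50 it was -0.59. The call was lost without vector replicate 2 or 3 (-0.82 and -0.80, limma adjusted p = 0.101 and 0.102) and with the replicate block (adjusted p = 0.0507).

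**Figure D3:**
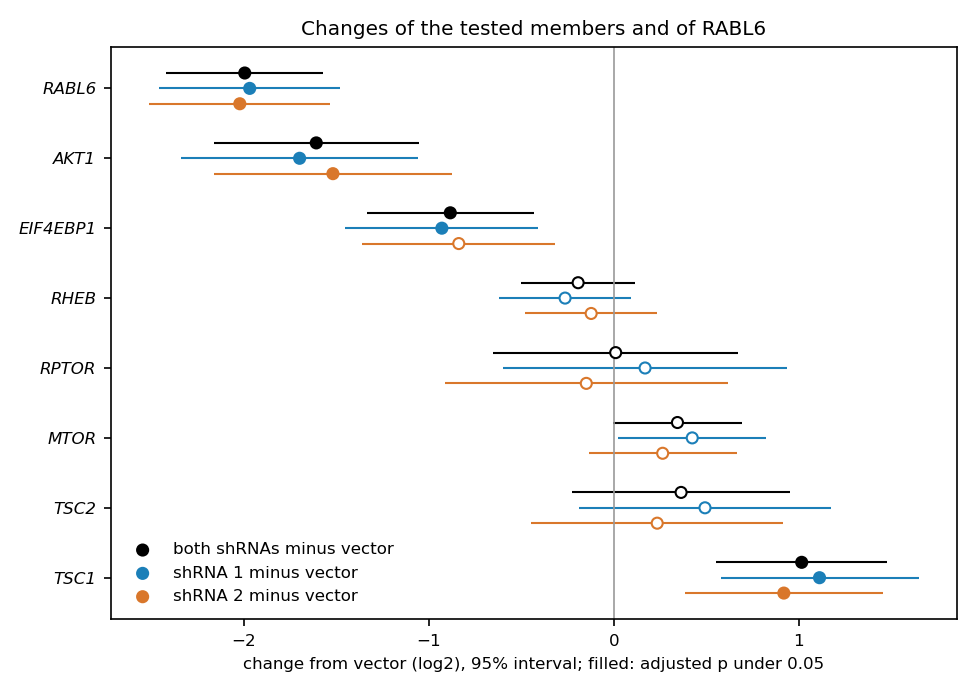
Change from vector on the log2 scale (horizontal axis) for RABL6 and the 7 tested members, with 95% intervals from the limma fit, for both shRNAs together (black), shRNA 1 (blue) and shRNA 2 (orange); filled points passed at an adjusted p under 0.05. AKT1 and EIF4EBP1 lie on the side of RABL6, at -1.61 and -0.88, and TSC1 on the other, at 1.02.

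One hairpin at a time, AKT1 fell and TSC1 rose with each in the fit over genes, TSC1 narrowly with shRNA 2. The single comparisons share the vector arrays. With shRNA 1, 3 of 7 members passed, against 11.2% of all genes, with AKT1 at -1.70 (SE 0.28, limma adjusted p = 0.0116), TSC1 at 1.11 (SE 0.24, adjusted p = 0.0247) and EIF4EBP1 at -0.93 (SE 0.23, adjusted p = 0.0371). With shRNA 2, 2 of 7 passed, against 8.65%, with AKT1 at -1.52 (SE 0.28, limma adjusted p = 0.0178) and TSC1 at 0.92 (SE 0.24, adjusted p = 0.047). In the fit over probes the TSC1 probes did not pass with shRNA 2 (limma adjusted p = 0.0512, 0.0775 and 0.418), and 0 members passed with shRNA 2 when any one vector array or shRNA 2 replicate 1 was left out, or with the replicate block. EIF4EBP1 was at -0.84 with shRNA 2 (SE 0.23, limma adjusted p = 0.0555). On 7 arrays 5 members passed with shRNA 1, against 43.9% of all genes, with TSC2 at 0.74 (SE 0.17, limma adjusted p = 0.00914) and MTOR at 0.49 (SE 0.16, adjusted p = 0.0368) in addition. With shRNA 2 on 7 arrays 3 passed, against 35.3%: AKT1 at -1.23, TSC1 at 0.66 and EIF4EBP1 at -0.62.

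Set against each other as labelled, the hairpins gave 0 of 7 members past the limma test, where 0% of 12498 genes passed. At an unadjusted p under 0.05 there were also 0 members, and 96 genes (0.768%). The difference of shRNA 2 minus shRNA 1 was 0.18 for AKT1 (95% interval from -0.46 to 0.82), -0.19 for TSC1 (-0.73 to 0.34), -0.26 for TSC2 (-0.94 to 0.42) and 0.09 for EIF4EBP1 (-0.43 to 0.61). These intervals hold differences of 0.5 or more in size, so equal effects are not shown. On 7 arrays 2 members passed, against 41.2% of all genes: AKT1 at 0.63 (SE 0.20, limma adjusted p = 0.0368) and TSC2 at -0.78 (SE 0.19, adjusted p = 0.0115). The arrays left out there are the ones that resembled the other hairpin's arrays, which by itself widens the gap between hairpins. Fewer arrays per hairpin remain, so no hairpin difference is concluded from that fit. Whether the hairpin labels of the arrays numbered 2 are exchanged was not tested.

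Within the shRNA arrays 5 of the 7 tested members were ordered like the whole profiles. For AKT1, RHEB and EIF4EBP1 the arrays shRNA 1 replicates 1 and 3 and shRNA 2 replicate 2 lay below the other 3 shRNA arrays, and for TSC2 and MTOR above them. This was so for 58% of all tested genes, 31% above and 27.1% below, so the members' share was near the background. For AKT1 the lower arrays read 9.06, 9.58 and 9.09 and the others 9.81, 9.74 and 10.16. For MTOR the gap was narrow, 9.69 against 9.68 at the nearest arrays.

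The AKT1 and TSC1 promoters are printed because these genes moved in opposite directions and were read by more than 1 probe each. Sequences are from RefSeq (GRCh38.p14), 250 bases before to 50 after a listed start site, 5′ to 3′ on the gene's strand, with the GC box letters GGGCGG or their complement CCGCCC in capitals. The AKT1 window is chr14:104795699-104795998 and the TSC1 window chr9:132944567-132944866, both on the minus strand.
AKT1: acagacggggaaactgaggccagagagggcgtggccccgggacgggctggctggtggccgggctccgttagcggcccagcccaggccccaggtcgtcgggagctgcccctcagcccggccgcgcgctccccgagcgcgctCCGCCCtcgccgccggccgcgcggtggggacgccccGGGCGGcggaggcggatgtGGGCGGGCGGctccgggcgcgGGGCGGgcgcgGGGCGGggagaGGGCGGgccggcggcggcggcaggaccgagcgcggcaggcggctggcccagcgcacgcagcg
TSC1: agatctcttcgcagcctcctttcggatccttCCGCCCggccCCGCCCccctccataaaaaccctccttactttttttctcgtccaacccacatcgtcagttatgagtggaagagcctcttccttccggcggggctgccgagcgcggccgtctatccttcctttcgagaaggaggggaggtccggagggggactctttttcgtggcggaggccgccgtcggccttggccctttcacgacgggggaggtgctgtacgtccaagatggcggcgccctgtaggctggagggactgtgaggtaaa
The AKT1 window was 83.3% G and C and held 7 GC boxes, of which 2 overlap, and the TSC1 window was 61.7% G and C and held 2. The median over 35116 promoter windows of that length was 58.7%, and 45% of them held at least 1 GC box. A second listed AKT1 start, chr14:104793552-104793851, had 56.7% and 1 GC box. E2F-type letters, TTTCGCG or TTTGGCG on either strand, were in neither gene's windows and in 3.19% of all windows. The E-box letters CACGTG, which equal their own complement, were found in 1 of 2 TSC2 windows, 114 bases before the start, and in 7.26% of all windows. Such matches describe letters and not binding.

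The rest of the pathway was read from 6 lists by role, which name 108 genes. Of these 96 were tested, 5 were not detected on enough arrays and 7 were not analysed here. For both shRNAs together 10 of the 96 rose and 5 fell, 15.6% in all, near the 16.6% of all tested genes. The median change of the 96 was 0.13 and that of all tested genes 0.03. A gene that moved in opposite directions on different shRNA arrays can have a small change in these means. On 7 arrays 27 were higher and 18 lower, where 41.2% of all genes were called. Without vector replicate 1, 2 or 3 the number called was 2, 1 and 3. Among the called pathway genes only PDCD4 kept its call in all 22 alternatives described at the end. EIF4A1 lost it in 1, SESN3 in 2, and SESN1, PRKAB1, ATG101, FOXO4 and CDKN1B in 3 each. RRAGD and NPRL3 lost it in 4 each, LPIN1 in 5, PRR5 and PRKAG1 in 6 each, LAMTOR3 in 9 and AKT1S1 in 13.

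Genes that feed into the TSC complex and RHEB held the most rises. Of 15 tested, 4 rose and 0 fell, with a median of 0.50, where 8.54% of all genes rose. At an unadjusted p under 0.05 the count was 6 of 15, against 32% of all tested genes. SESN3 and SESN1 encode sestrins, which restrain mTORC1. SESN3 read 5.63, 5.95 and 6.21 in the vector arrays, 6.86, 7.01 and 6.84 in those of shRNA 1 and 7.28, 6.83 and 6.60 in those of shRNA 2, and rose by 0.98 (SE 0.18, limma adjusted p = 0.0108). SESN1 rose by 0.77 (SE 0.15, limma adjusted p = 0.0119). PRKAB1 and PRKAG1, regulatory subunits of the AMP-activated kinase that acts on TSC2 and RPTOR, rose by 0.71 (SE 0.14, limma adjusted p = 0.0114) and 0.54 (SE 0.13, adjusted p = 0.0265). PRKAG1 did not pass with shRNA 2 alone (limma adjusted p = 0.12). The 11 others did not pass, among them SESN2 at -0.13 and the catalytic subunits PRKAA1 at -0.38 and PRKAA2 at 0.61.

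Upstream of AKT, 0 of 17 tested receptor, PI3-kinase and phosphatase genes passed the limma test, against 16.6% of all genes, and 3 did so at an unadjusted p under 0.05, against 32%. Their changes ran from -0.67 to 0.46, with a median of 0.15. These are means over both hairpins, and single arrays moved further. INPP4B, at -0.67, read 8.32, 8.25 and 8.41 in the vector arrays. On shRNA 1 replicate 2 and shRNA 2 replicates 1 and 3 it read 6.40, 6.62 and 7.22. On the other shRNA arrays it read 8.51, 8.67 and 8.51, above all vector arrays. PIK3C2B was split in the same way, below vector on those same arrays and above it on the others. Of 9 partners of the mTOR complexes 2 fell and 0 rose, with a median of -0.09, where 8.09% of all genes fell. With each hairpin alone 0 of the 9 passed. PRR5, a subunit of mTORC2, fell by 0.61 (SE 0.15, limma adjusted p = 0.025), while its other 2 probes changed by -0.18 and -0.24. AKT1S1, the gene of the AKT substrate PRAS40 that inhibits mTORC1, fell by 0.43 (SE 0.12, limma adjusted p = 0.0461), and lost its call in 13 of 22 alternatives, for one with no background correction (-0.16, adjusted p = 0.0959). MLST8 was at -0.42 (SE 0.68) and RICTOR at 0.49 (SE 0.17), and neither passed. The MLST8 mean covers arrays that moved in opposite directions. MLST8 read 8.36, 8.58 and 8.43 in the vector arrays. It read 9.07, 6.63 and 9.17 in those of shRNA 1, and 6.80, 9.36 and 7.21 in those of shRNA 2. The arrays shRNA 1 replicates 1 and 3 and shRNA 2 replicate 2 were above all vector arrays, and the other shRNA arrays were below them.

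In amino acid sensing at the lysosome 2 of 24 genes rose and 1 fell, with a median of 0.16, where 16.6% of all genes were called. RRAGD, one of the RAG GTPases that bring mTORC1 to the lysosome, read 8.75, 8.86 and 8.73 in the vector arrays, 10.27, 9.51 and 9.55 in those of shRNA 1 and 9.77, 10.31 and 9.37 in those of shRNA 2. It rose by 1.02 (SE 0.24, limma adjusted p = 0.0228), but passed with neither shRNA 1 nor shRNA 2 alone (adjusted p = 0.0508 and 0.0517). LAMTOR3, a subunit of the complex that anchors the RAG GTPases, rose by 0.52 (SE 0.14, limma adjusted p = 0.0358). Its other 2 probes, which were dimmer, changed by 0.32 and 0.27 and did not pass. LAMTOR3 lost its call in 9 of 22 alternatives, for one with arrays centred on their medians (0.37, limma adjusted p = 0.0921). With each hairpin alone it did not pass (limma adjusted p = 0.0512 and 0.112). NPRL3, part of the GATOR1 complex that turns the RAG GTPases off, fell by 0.83 (SE 0.17, limma adjusted p = 0.0148).

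Among 22 genes on the output side of mTORC1, 2 rose and 2 fell, with a median of -0.01, against the same 16.6%. PDCD4, a repressor of the helicase eIF4A, rose by 1.18 (SE 0.18, limma adjusted p = 0.00502), and its second probe by 1.43. EIF4A1, the gene of that helicase, read 13.22, 13.27 and 13.15 in the vector arrays, 12.27, 12.56 and 12.60 in those of shRNA 1 and 12.43, 12.38 and 12.61 in those of shRNA 2. EIF4A1 fell by 0.74 (SE 0.12, limma adjusted p = 0.00695), and by 1.45 on its second probe. ATG101, an autophagy initiation subunit, rose by 0.59 (SE 0.12, limma adjusted p = 0.0161). LPIN1, a phosphatidate phosphatase that mTORC1 phosphorylates, fell by 0.48 (SE 0.11, limma adjusted p = 0.0235), and did not pass with shRNA 1 alone (adjusted p = 0.168). The relatives of EIF4EBP1 did not pass, with EIF4EBP2 at -0.09 (SE 0.27) and EIF4EBP3 at -0.31 (SE 0.17), nor did EIF4E at 0.18 (SE 0.20).

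Among 9 genes of direct AKT substrates 2 rose and 0 fell, with a median of 0.05, where 8.54% of all genes rose. FOXO4, a forkhead transcription factor that AKT keeps out of the nucleus, read 7.26, 6.98 and 7.25 in the vector arrays, 9.15, 8.15 and 8.63 in those of shRNA 1 and 8.48, 9.05 and 7.85 in those of shRNA 2. It rose by 1.39 (SE 0.29, limma adjusted p = 0.015), while FOXO1 was at -0.01 (SE 0.14) and FOXO3 at -0.40 (SE 0.17). CDKN1B, the gene of the cell cycle inhibitor p27, rose by 0.70 (SE 0.15, limma adjusted p = 0.0175), and by 0.62 on its second probe. With shRNA 2 alone CDKN1B did not pass (limma adjusted p = 0.0592).

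**Figure D4:**
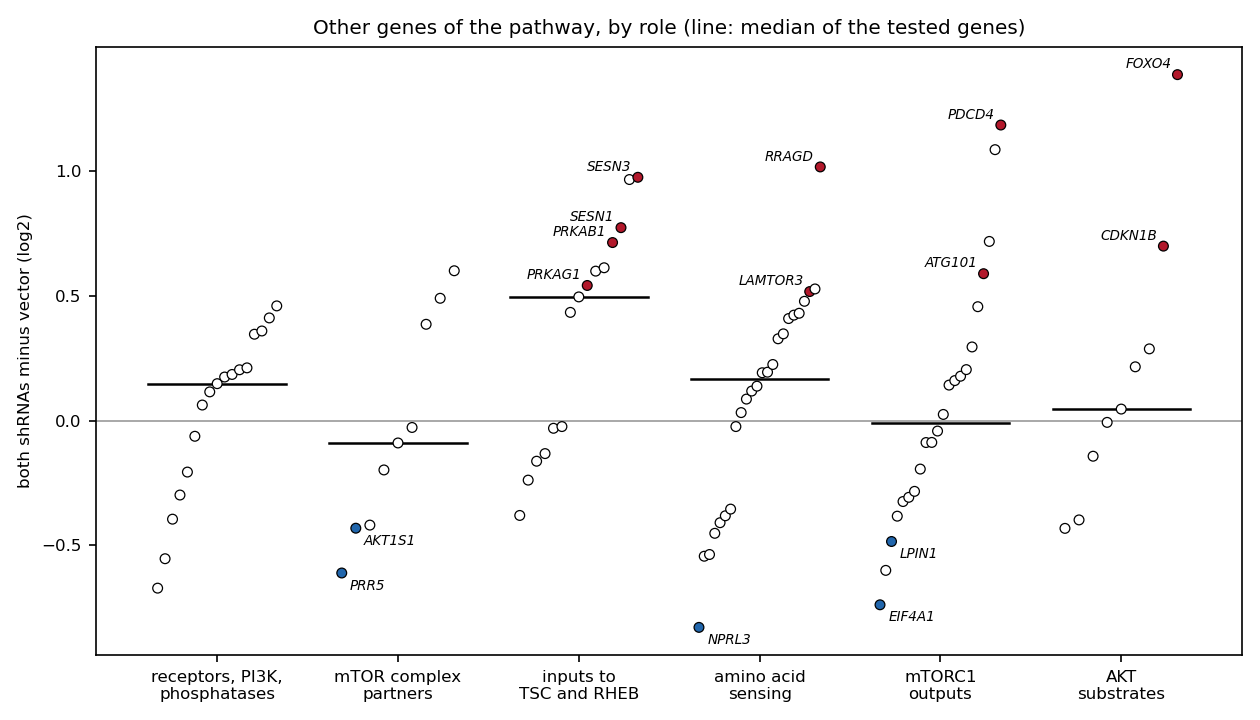
Change of both shRNAs minus vector on the log2 scale (vertical axis) for each of the 96 tested pathway genes, in 6 columns by role and ordered by change within a column; red points rose and blue points fell at an adjusted p under 0.05, open points did not pass, and bars are medians. The inputs to TSC and RHEB have the highest median, 0.50, with 4 rises, and the receptors, PI3-kinases and phosphatases have no point that passed.

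The genes whose profile over the 9 arrays was nearest to that of a called member were found by the root mean square difference in log2, each profile taken relative to its own vector mean. For AKT1, whose own profile had a root mean square of 1.35, the nearest were RCC1, the exchange factor of the GTPase RAN, at 0.11, PKMYT1, a kinase that inhibits CDK1, at 0.13 and PYCR1, an enzyme of proline synthesis, at 0.13. For EIF4EBP1, with 0.76, they were SSRP1, a histone chaperone subunit, at 0.10, PAFAH2, a phospholipase, at 0.11 and EMG1, a ribosome assembly factor, at 0.13. For TSC1, with 0.87, they were the tyrosine kinase gene SRC at 0.12, the activin receptor gene ACVR2A at 0.12 and TMOD1, an actin-capping protein gene, at 0.12. RCC1 changed by -1.52, SSRP1 by -0.88 and SRC by 0.92. The measure ranks likeness of the 9 values and carries no test.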

How the data were processed

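Total RNA of 9 BON-1 samples was hybridised to Illumina HumanHT-12 v4 BeadChips in 1 colour, per the labels' protocols. Values started from signal intensity of 47231 probes, deposited without normalization per the file headers. Per the submitters' processing notes the software was GenomeStudio. A detection p-value for every probe and array was deposited beside the signal. A second deposited table by the authors, of linear intensity for 47219 probes (column medians 7.93 to 7.96, values between -23.85 and 26422), served as an alternative. Its method is not stated in the labels or headers.

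Background was corrected by nec (offset 16) and arrays were quantile normalized and put on the log2 scale, in limma 3.58.1 under R 4.3.3. The 22011 probes that 3 or more arrays detected (p under 0.05) were used, and a gene was read by its kept probe with the highest mean (12498 genes). Names came from the platform annotation, updated by gene identifier, where 30108 probes have 1 symbol and the other 17123 several, none or no entry. One mean per group was fitted with lmFit and eBayes over 9 arrays, with Benjamini-Hochberg adjustment over all genes, and again over all kept probes. Only the fit was run on simulated data, made from normalized gene means with independent noise and known changes added. The background, normalization, filter and probe steps were not simulated. All 8 members are described. Other pathway genes are named where called, up to 4 in each direction per list, with the 3 nearest profiles per called member. Uncalled genes named beside them were chosen after their values were seen. The members, lists and the 7-array fit were chosen with earlier results of these data known. The number of arrays limits precision.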

Additional observations from a re-analysis of the deposited data

How the results depend on the processing

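Alternatives changed the background step (none, or an offset of 50), the scaling (median centring, cyclic loess, the authors' value table), the filter on detection, the probe taken for a gene and the fit (trended robust eBayes, array weights, the compared groups alone, the replicate block, 1 array left out, 7 arrays). For both shRNAs minus vector the number of members called was 1 to 3 with an array left out (1 without vector replicate 2 or 3) and 2 or 3 otherwise. AKT1 kept its direction and its call in all 22 alternatives, from -1.75 to -0.98, TSC1 kept its call in 19 of 22 (0.64 to 1.10) and EIF4EBP1 in 19 of 22 (-1.03 to -0.37). Leaving out 1 array gave 0 to 3 members for shRNA 1, 0 to 3 for shRNA 2, 1 to 20 pathway genes and 2 to 5 member probes. For shRNA 1 there were 6 members with array weights, 1 with the replicate block and 5 on 7 arrays. For shRNA 2 there was 1 with cyclic loess, the authors' value table, no filter, the mean of probes or only the compared groups, and 0 with the replicate block. Between the hairpins 1 passed with array weights and 2 on 7 arrays. The pathway count of 15 was 47 with array weights, 9 with the replicate block and 45 on 7 arrays. With median centring 8 pathway genes rose and 7 fell in place of 10 and 5. All genes called, 2078 (1067 higher, 1011 lower), numbered 5588 with array weights, 5151 on 7 arrays, 1106 with the replicate block and 489 to 2583 with an array left out. Median centring gave 613 higher and 1432 lower and moved the median of all genes from 0.03 to -0.08. The causes were not tested.

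The labels do not say that a replicate number marks a shared set. Deviations of same-numbered arrays from their group means correlated at 0.028 to 0.153 between vector and shRNA arrays. Between the hairpins they correlated at -0.893 to -0.239, so not every pair was above 0.1. Each hairpin group held an array resembling those of the other, which enters these deviations, so the check cannot show whether a set is shared. The main fit took the arrays to share only a number, and the replicate block is given as an alternative. With the replicate block EIF4EBP1 was at an adjusted p = 0.0507, and AKT1 (0.0245) and TSC1 (0.0359) passed. Between its alternatives RHEB ranged from -0.34 (median centring) to -0.13. For other dim probes, no background correction gave PRR5 at -0.21 and SESN3 at 0.45. RPTOR, never called, was at -0.0451 with median centring, -0.0292 with the authors' value table, -0.16 with array weights, -0.044 on 7 arrays and -0.16 to 0.13 with an array left out (-0.0425 and -0.062 without vector replicate 1 and 3, -0.16 without shRNA 1 replicate 1, -0.12 without shRNA 2 replicate 2). Between the hairpins the sign turned, with no call, for AKT1 without shRNA 1 replicate 1 (-0.0312) or shRNA 2 replicate 3 (range over arrays left out -0.0696 to 0.4654), for RPTOR without shRNA 1 replicate 1 (-0.5867 to 0.0283) and for EIF4EBP1 without shRNA 2 replicate 3 (-0.0987 to 0.3145). RPTOR had no value where detection on all 9 arrays was required. Low signal over background limits AKT2, RPTOR, EIF4EBP1, RABL6 and the dim probes of AKT1, TSC1 and TSC2.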
